A study of Mus musculus with 18 samples.

Results

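The comparison described here set mouse fibroblasts that expressed SUN1L against fibroblasts that expressed KDEL, both on a soft gel of 1 kPa. It held 6 of the 18 libraries of the series, namely the SUN1L libraries numbered 3, 15 and 27 and the KDEL libraries numbered 4, 16 and 28, which were chosen by their labels and not by any measured value. Both lines were NIH 3T3 Tet-On cells, an established mouse embryonic fibroblast line, in which doxycycline switched on a retroviral construct, and all 6 libraries came from induced cells on fibronectin-coated polyacrylamide. SUN1L is the lumenal domain of SUN1 behind a signal sequence and an HA tag and in front of the ER retrieval signal KDEL. In the control line GFP took the place of the SUN1 domain. Each construct was represented by 1 transduced and puromycin-selected line, and the KDEL line had additionally been enriched by cell sorting, so that an effect of the construct and a difference between the lines cannot be told apart. Per the methods, the libraries of a group were separate biological replicates. The same lines on a stiff gel of 308 kPa gave 6 further libraries that are set beside the soft gel where this adds a measurement, and 5 libraries of KDEL cells on 308 kPa with blebbistatin or Y27 were used as a further reading of the KDEL line.

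SUN proteins of the inner nuclear membrane and nesprins of the outer nuclear membrane meet in the lumen between both membranes and form the LINC complex, which joins the nuclear lamina to actin, intermediate filaments and microtubules. Nesprins end in a short lumenal KASH peptide that docks onto the SUN domain. A soluble SUN1 lumenal domain in the ER competes for that peptide and thereby uncouples the nucleus from the cytoskeleton, and such constructs are widely used in fibroblasts to ask which cellular responses need this coupling. The comparison on 1 kPa describes which mRNAs differ between the SUN1L and KDEL lines when the substrate is soft.

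Polyadenylated RNA was sequenced in pairs, and the deposited value is a normalised signal per gene on a linear scale, with 1 as its lowest value and without division by gene length, so levels were compared between libraries and not between genes. Spacing of the low values put the 6 libraries at an estimated 12720000 to 19020000 read pairs, with library 3 the shallowest. Of 22019 genes in the table, 16021 had a value over 1 in 3 or more of all 18 libraries and were tested on log2(signal + 1). Library 3 stood apart from the other SUN1L libraries: among genes with a mean signal of at least 100, 849 differed at least 2-fold between library 3 and the other two, against 247 for library 15 and 434 for library 27, and 43 to 72 for the KDEL libraries. Library 3 had also been singled out in earlier results of these data for low levels of genes of dividing cells, so that a weaker difference of such genes without it was known in advance. The counts of genes called, at an unadjusted p under 0.05 and at least 2-fold different are given with and without it. So are lists and most named genes for which it stood apart.

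The 12 fibroblast markers were all expressed, with a summed signal of 625530 to 789100 in KDEL and 632900 to 763350 in SUN1L libraries. Markers of other cell types had summed signals of at most 951. The highest single value was 912, for 1 endothelial marker in library 3, which made up most of that library's endothelial sum. Epcam, Krt5 and Krt18 of the 7 epithelial markers, Cd3e of 6 leukocyte markers, Myod1 and Myog of 5 muscle markers, Lep of 5 adipocyte markers and Rbfox3 and Syt1 of 4 neuronal markers were at the lowest value in all 6 libraries, and none of the 4 endothelial markers was. Summed signals of KDEL and SUN1L libraries were 232 to 287 and 249 to 433 for epithelial, 351 to 603 and 370 to 951 for endothelial, 390 to 448 and 236 to 485 for leukocyte, 215 to 293 and 308 to 472 for muscle, and 26.3 to 77.1 and 37.4 to 82.3 for adipocyte markers. The neuronal sum was at its lowest possible value of 4 in all 3 KDEL libraries and reached 14.7 in SUN1L cells. The 2 sets of muscle sums did not overlap, mostly through Des, the muscle intermediate filament desmin, at 197, 213 and 286 in KDEL and 295, 465 and 378 in SUN1L libraries (log2 difference 0.70, unadjusted p = 0.0162, adjusted p = 0.930), and its part in other differences was not tested. In these bulk libraries fewer cells of a type and less RNA per cell cannot be told apart.

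On the soft substrate few genes separated the lines firmly, and those that did were mostly far lower in SUN1L cells. With limma's moderated test, 14 of 16021 genes (0.0874%) differed at an adjusted p under 0.05 and at least 2-fold, of which 4 (0.025%) were higher and 10 (0.0624%) lower in SUN1L cells. Higher were Sun1, Rad1, Cox7b2 and Akr1c13, and lower were Rgl3, Olfr1028, Pof1b, Rragd, Xlr4a, Ttyh3, Cd97, Serpina1c, Serpina1a and Frmpd4. A wider set of 727 genes (4.54%) had an unadjusted p under 0.05, 440 higher and 287 lower. The 3 SUN1L values lay entirely above or below the 3 KDEL values for 2325 genes (14.5%), and 424 of these (2.65%) differed at least 2-fold. For a single gene an exact permutation test of 3 libraries against 3 cannot go below p = 0.1, and the precision therefore comes from the spread shared over genes and over 12 libraries.

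**Figure D1:**
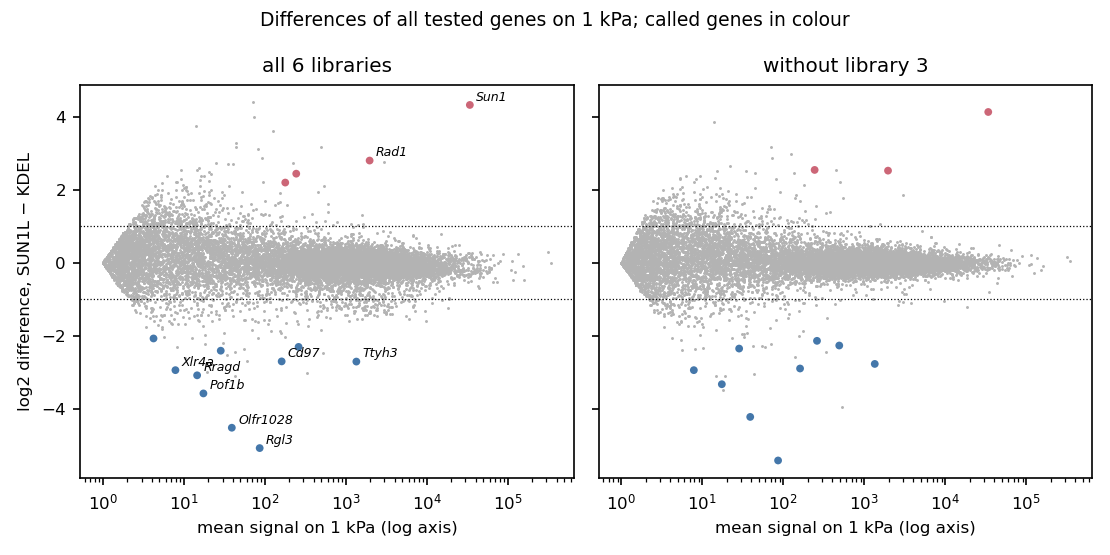
Log2 difference between SUN1L and KDEL cells on 1 kPa (vertical axis) against mean signal over the 6 libraries (log axis) for all 16021 tested genes, with all libraries (left) and without library 3 (right). Red and blue points are the called genes, 4 higher and 10 lower on the left, 3 higher and 9 lower on the right, and dotted lines mark 2-fold.

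Leaving out library 3 moved the number of called genes little and the wider counts more. Without it 12 genes (0.0749%) were called, 11 of them shared with the full set, while Akr1c13, Rragd and Frmpd4 were no longer called and Cxcl12 was. Leaving out KDEL library 4 mattered more and left 8 called genes, Serpina1a, Olfr1028, Cox7b2, Sun1, Ttyh3, Rgl3, Xlr4a and Pof1b, and these 8 remained called whichever of the 12 libraries was left out. Without library 3, genes at an unadjusted p under 0.05 fell to 422 (2.63%), of which 308 were among the 727. Genes with at least a 2-fold difference went from 778 (445 higher, 333 lower) to 594 (405 higher, 189 lower), with 379 in common, and 309 of the 778 had a mean signal below 10. A fit that treated the runs of library numbers (3 to 12, 15 to 24 and 27 to 36) as blocks called 17 genes (0.106%), all 14 plus Cxcl12, Ano3 and Isyna1, and raised the number at an unadjusted p under 0.05 to 2259 (14.1%).

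Sun1, the gene from which the construct was made, was high in the libraries labelled SUN1L and in no KDEL library. Its signal was 3496, 3261 and 2785 in the KDEL libraries and 82617, 63551 and 48167 in the SUN1L libraries, a log2 difference of 4.32 ± 0.243 (SE) with an adjusted p = 4.42e-05. The highest SUN1L value was in library 3, and the groups were far apart. The gene lies on chromosome 5 (GRCm38, 139200637 to 139249840), and its signal does not separate transcripts of the construct from those of the endogenous gene.

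The partners of SUN1 in the LINC complex were measured at levels whose differences did not pass the test. Sun2, the other widely expressed SUN protein, had signals of 3542, 3591 and 2951 in KDEL and 3152, 3936 and 3013 in SUN1L cells (log2 difference −0.0019, 95% interval −0.33 to 0.32), and its sign turned under several alternatives. Nesprin genes gave log2 differences of 0.48 for Syne1, −0.44 for Syne2, −0.35 for Syne3 and 0.56 for Syne4 (0.14 without library 3). For the giant nesprins Syne1 and Syne2 library 3 stood apart, with Syne1 at 6604 against 3427 and 2989 in the other SUN1L libraries and Syne2 at 1261 against 2394 and 2279. Without library 3 their differences were 0.13 and −0.14, and that of Syne3 turned to 0.03. Sun5, Lrmp, Ccdc155 and Spag4 were low, with at most 98.1 signal units in any of the 6 libraries, and Sun3 was at the lowest value in all 6. Of the 10 tested SUN and nesprin genes, 1 (Sun1) was called.

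Lamins, the intermediate filaments under the inner nuclear membrane to which SUN proteins bind, also did not pass. Lmna was at 28358, 29239 and 29309 in KDEL and 19321, 26114 and 30014 in SUN1L cells, a log2 difference of −0.23 (adjusted p = 0.930). Lmnb1 was at 3653, 2445 and 3376 in KDEL and 471, 2019 and 2781 in SUN1L cells, which gave a log2 difference of −1.17 ± 0.895 (SE) and an adjusted p = 0.930. The value in library 3 was the lowest of the 6 for both genes, and without it the difference of Lmnb1 was −0.39 and that of Lmna −0.05. Of 18 genes of the lamina and inner nuclear membrane, 0 were called and 0 had an unadjusted p under 0.05, beside 0.0874% and 4.54% of all genes. Their median log2 difference was −0.09, and −0.004 without library 3. Tmpo, which encodes the lamina-associated LAP2 proteins, had non-overlapping groups, with 10134, 7888 and 9010 in KDEL and 2929, 6888 and 7564 in SUN1L cells (log2 difference −0.75, unadjusted p = 0.119, and −0.31 without library 3).

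Among genes that fell in SUN1L cells, 4 went from a clear signal to values near the lowest possible. Rgl3, a member of the RalGDS-like exchange factors that act on Ral GTPases (chromosome 9, 21971527 to 21989453), had signals of 153, 176 and 174 in KDEL and 7.00, 6.81 and 1 in SUN1L cells. The highest SUN1L value corresponded to an estimated 4.01 read pairs. The log2 difference was −5.07 ± 0.548 (SE), adjusted p = 0.00392. Olfr1028, an olfactory receptor gene (chromosome 2, 85951065 to 85952039), had 58.0, 69.5 and 99.5 in KDEL and 1.17, 2.02 and 4.33 in SUN1L cells, a difference of −4.52 ± 0.416, adjusted p = 0.00164. Olfactory receptor genes form a large family with similar sequences, so the counting could have divided reads among members. Its highest SUN1L value was an estimated 2.23 read pairs, and that of the next gene, Pof1b, 1.62, so the size of both differences rests on very few reads in SUN1L cells and on the added 1 of the log scale. Pof1b, which encodes an actin-binding protein of epithelial junctions (chromosome X, 112638431 to 112698651), had 30.5, 33.4 and 34.8 in KDEL and 1, 1.74 and 3.15 in SUN1L cells, a difference of −3.58 ± 0.288, adjusted p = 0.000847. Xlr4a, a member of an X-linked family with several similar copies (73074345 to 73082478), had 10.3, 15.5 and 18.4 in KDEL cells and was at the lowest value in all 3 SUN1L libraries. Taking 3 read pairs per library as the floor, its KDEL mean was at least 2.47-fold higher.

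Rragd and Frmpd4, also of low signal, fell, and their calls depended on single libraries. Rragd, which encodes one of the Rag GTPases that bring mTORC1 to the lysosome (chromosome 4, 32983037 to 33022180), had 24.4, 35.4 and 20.4 in KDEL and 2.33, 1 and 3.89 in SUN1L cells. The groups did not overlap, with a log2 difference of −3.08 ± 0.413 (adjusted p = 0.0195), and the adjusted p was 0.105 without library 3. The highest SUN1L value was an estimated 2.00 read pairs. The other Rag genes gave values near 0: Rraga had a log2 difference of 0.01 and Rragc −0.16, and Rragb was at the lowest value in all 6 libraries. Frmpd4, a scaffold protein known from dendritic spines (chromosome X, 167471309 to 168577231), had 7.50, 6.64 and 8.17 in KDEL cells and the lowest value in all 3 SUN1L libraries, which with the same floor makes the KDEL mean at least 1.25-fold higher. Its call (adjusted p = 0.0265) held in 3 of the 12 fits that each left out 1 library, and that of Rragd in 6 of 12.

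Ttyh3 and Cd97 fell from a higher level. Ttyh3, of the Tweety family of membrane proteins described as chloride channels (chromosome 5, 140620586 to 140649031), had 2589, 2297 and 2123 in KDEL and 389, 410 and 283 in SUN1L cells. Its log2 difference of −2.71 ± 0.244 had an adjusted p = 0.00164 and remained called with each library left out in turn. Ttyh2 (log2 difference −0.08) and Ttyh1 (0.79, unadjusted p = 0.0618) were not called. Cd97, an adhesion G protein-coupled receptor that binds CD55 (chromosome 8, 83723251 to 83741326), had 288, 262 and 288 in KDEL and 55.5, 34.4 and 39.1 in SUN1L cells, a difference of −2.70 ± 0.329 with an adjusted p = 0.00895. Its call held in 7 of the 12 fits with 1 library left out, with an adjusted p of up to 0.079, and was lost without KDEL library 4, 16 or 28 or SUN1L library 15 or 27. The adhesion receptor list was chosen because Cd97 was already known as called. Cd97 was the only called gene of its 17 tested genes, among which Gpr124 and Gpr125 had log2 differences of −0.07 and −0.01.

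The Serpina1 genes, which encode α1-antitrypsin inhibitors of serine proteases, had 2 called members, Serpina1a and Serpina1c, both lower in SUN1L cells. Serpina1a (chromosome 12, 103853589 to 103863562) had 430, 458 and 409 in KDEL and 68.7, 121 and 78.0 in SUN1L cells, with a log2 difference of −2.30 ± 0.244 and an adjusted p = 0.00373. Serpina1c (103894926 to 103904887) had 50.1, 43.5 and 52.1 against 7.59, 11.2 and 6.74, with −2.41 ± 0.274 and an adjusted p = 0.00551. Both separated completely. Serpina1b and Serpina1d were not called, with log2 differences of −1.04 (unadjusted p = 0.00311) and −1.24 (unadjusted p = 0.0441), and Serpina1e was below 2 signal units in all 6 libraries. Serpina3n, the 1 tested gene of the related Serpina3 group, pointed the other way, at the lowest value in the 3 KDEL libraries and at 9.34, 6.81 and 1 in SUN1L cells (1.44, unadjusted p = 0.0399). The Serpina1 genes are near copies of each other, and reads could have been divided among them. The promoters of both called members are printed to show how alike this stretch is, which lies mostly before the start and says nothing about read assignment. In RefSeq (GRCm38.p6, minus strand), 250 bases before to 50 after the start, 279 of 294 aligned bases were identical, and capitals mark the bases that differ.

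Serpina1a, chr12:103863570-103863869: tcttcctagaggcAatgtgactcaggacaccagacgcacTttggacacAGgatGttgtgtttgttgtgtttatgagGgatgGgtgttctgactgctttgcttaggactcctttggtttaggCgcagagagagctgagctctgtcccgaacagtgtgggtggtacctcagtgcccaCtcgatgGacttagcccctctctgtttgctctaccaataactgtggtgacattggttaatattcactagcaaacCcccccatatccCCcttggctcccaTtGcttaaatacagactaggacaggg
Serpina1c, chr12:103904901-103905200: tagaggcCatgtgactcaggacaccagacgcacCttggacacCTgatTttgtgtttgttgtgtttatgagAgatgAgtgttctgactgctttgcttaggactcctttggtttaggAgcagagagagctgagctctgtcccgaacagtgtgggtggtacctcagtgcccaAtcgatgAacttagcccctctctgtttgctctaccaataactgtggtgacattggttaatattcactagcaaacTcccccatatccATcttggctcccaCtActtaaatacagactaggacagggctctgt

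Akr1c13 rose in SUN1L cells while its neighbour and near copy Akr1c12 was lower. Both encode aldo-keto reductases, cytosolic enzymes that reduce steroids and other carbonyls. Akr1c13 (chromosome 13, 4191184 to 4205596) had 43.1, 69.2 and 79.6 in KDEL and 313, 350 and 216 in SUN1L cells, a log2 difference of 2.19 ± 0.312 with an adjusted p = 0.0287. Its adjusted p was 0.196 without library 3, and the call held in 3 of 12 fits with 1 library left out. Akr1c12 had 238, 208 and 287 in KDEL and 71.2, 102 and 35.1 in SUN1L cells, a difference of −1.92 ± 0.369 with an adjusted p = 0.224. For both genes the groups did not overlap, in opposite directions. Their separate values could depend on how reads were assigned between similar transcripts, which was not examined. Their RefSeq promoters, which lie mostly before the start and say nothing about read assignment, are shown as a description. Of 296 aligned bases 284 were identical, with 1 gap, and capitals mark bases that differ or face the gap. Unaligned end bases (4 in Akr1c12, 3 in Akr1c13) are in lower case (Akr1c12 minus strand, Akr1c13 plus strand).

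Akr1c12, chr13:4279350-4279649: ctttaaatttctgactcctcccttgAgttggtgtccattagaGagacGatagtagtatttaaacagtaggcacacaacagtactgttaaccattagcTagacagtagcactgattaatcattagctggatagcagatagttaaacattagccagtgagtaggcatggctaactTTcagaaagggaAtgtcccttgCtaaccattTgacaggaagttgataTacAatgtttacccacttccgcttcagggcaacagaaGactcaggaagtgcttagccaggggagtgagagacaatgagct
Akr1c13, chr13:4190937-4191236: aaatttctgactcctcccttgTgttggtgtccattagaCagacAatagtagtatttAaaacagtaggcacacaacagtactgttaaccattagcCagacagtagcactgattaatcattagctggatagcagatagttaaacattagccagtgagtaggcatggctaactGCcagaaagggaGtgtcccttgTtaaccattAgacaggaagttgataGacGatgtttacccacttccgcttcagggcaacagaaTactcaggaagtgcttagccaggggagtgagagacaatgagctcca

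Rad1 and Cox7b2 rose. Each was the 1 called gene of its list, and both lists were chosen because these genes were already known as called. Rad1, a subunit of the 9-1-1 clamp that is loaded onto damaged DNA (chromosome 15, 10486018 to 10499063), had 458, 421 and 554 in KDEL and 4843, 2334 and 3185 in SUN1L cells, a log2 difference of 2.80 ± 0.321 with an adjusted p = 0.00551. Its partners Rad9a and Hus1 and the clamp loader subunit Rad17 had differences of −0.23, −0.19 and −0.03 and were not called. Of the 11 tested genes of the clamp, its loader and its signalling partners, 3 had SUN1L values entirely below the KDEL values, beside 1259 of all 16021 genes. Clspn, a mediator of the replication checkpoint, had the lowest difference at −1.34 (−0.33 without library 3, unadjusted p = 0.216 with it). Cox7b2, a cytochrome c oxidase subunit best known from testis (chromosome 5, 71442824 to 71548205), had 65.1, 68.3 and 94.2 in KDEL and 355, 455 and 426 in SUN1L cells, a difference of 2.44 ± 0.248 with an adjusted p = 0.0029. The oxidase list was chosen because Cox7b2 was already known as called, and of its 17 tested genes 1 was called. With Cox7b2 included, 3 of the 17 (17.6%) were higher at an unadjusted p under 0.05, beside 440 of all 16021 genes. The ubiquitous counterpart of Cox7b2, Cox7b, had a difference of −0.10. Cox6b2, another form known from testis, was at the lowest value in all 3 KDEL libraries and at 3.25, 2.09 and 7.76 in SUN1L cells (unadjusted p = 0.0351), and Cox7a2l had a difference of 0.53 (unadjusted p = 0.0287).

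**Figure D2:**
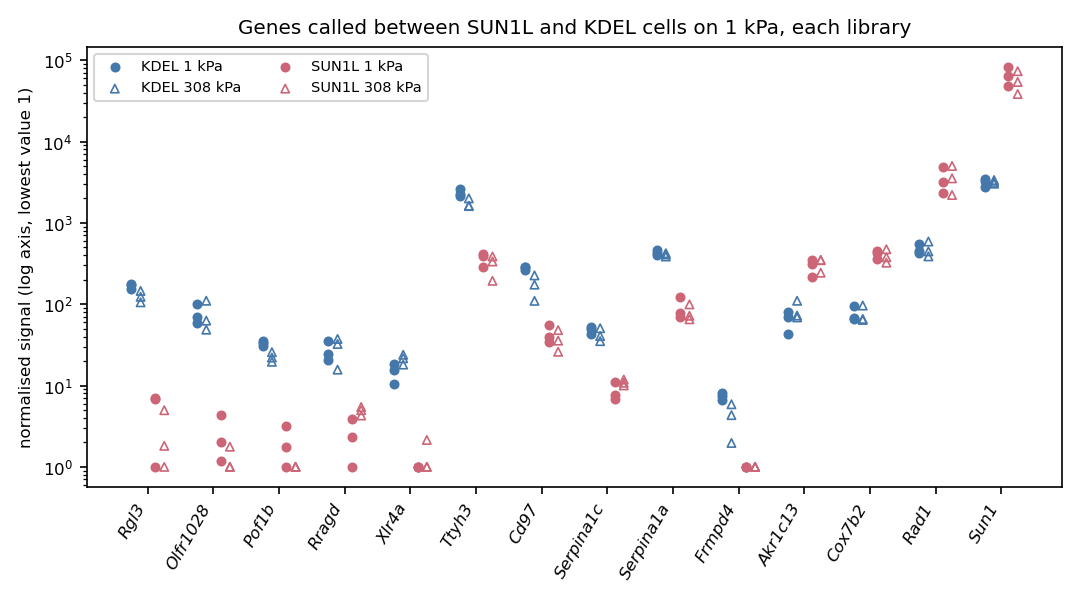
Normalised signal (log axis) of the 14 genes called on 1 kPa in each of the 3 KDEL (blue) and 3 SUN1L (red) libraries on 1 kPa (filled circles) and 308 kPa (open triangles), ordered by their difference on 1 kPa. For all 14 genes the SUN1L and KDEL libraries do not overlap on either gel, from Rgl3 with the largest fall to Sun1 with the largest rise.

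On the stiff substrate the 14 genes took the same direction. The 308 kPa libraries were not in the soft groups, but they entered the estimate of spread behind the soft calls. Genes with little spread on 308 kPa were therefore favoured among the 14. On 308 kPa 10 genes (0.0624%) were called and 406 (2.53%) had an unadjusted p under 0.05. Of the 14 genes called on 1 kPa, 14 of 14 had the same sign and non-overlapping groups on 308 kPa, and 9 were called there. The share of all tested genes without overlap on 308 kPa was not counted, and that on 1 kPa was 14.5%. Rad1 was at 387, 446 and 590 in KDEL and 5011, 2202 and 3528 in SUN1L cells on 308 kPa (log2 difference 2.86), and Ttyh3 at 1624, 2002 and 1610 against 386, 335 and 194 (−2.56). The test of the difference between the soft and stiff effects called 0 genes in limma, with 145 at an unadjusted p under 0.05, and among the 14 genes its smallest unadjusted p was 0.072, for Frmpd4 (−2.07 on 1 kPa, −1.25 on 308 kPa). Adding the 5 inhibitor-treated libraries, all 14 genes separated the 6 SUN1L from the 11 KDEL libraries completely, which 106 genes did in all (0.662% of those tested, 43 higher and 63 lower in SUN1L cells). An unassigned empty-vector library on 308 kPa (number 34, with a myosin inhibitor on which its labels conflict) was below all 11 KDEL libraries for Serpina1a (63.1), Serpina1c (1.78), Olfr1028 (4.34), Xlr4a (1), Pof1b (4.50), Rragd (8.85) and Cox7b2 (21.6). Of 151 genes with an unadjusted p under 0.05 on both gels, 145 had the same sign.

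Of the genes beside the called genes, none was called apart from 2 that neighbour each other in the Serpina1 cluster. Of the 54 genes listed within 2 places of a called gene, 44 were tested. Of these, 7 had an unadjusted p under 0.05 (against 4.54% of all genes) and 10 differed at least 2-fold (against 778 of 16021). The 2 that were called (against 0.0874% of all genes), Serpina1a and Serpina1c, entered this count as neighbours of each other. Beside Sun1, Heatr2 and Get4 had log2 differences of −0.09 and −0.05. Beside Rad1, Brix1 and Ttc23l had 0.13 and −0.26, beside Ttyh3, Lfng and Iqce had 0.18 and 0.23, and beside Rragd, Ankrd6 and Ube2j1 had 0.14 and −0.17. The 2-fold differences were in the Serpina1 and Akr1c clusters, where Akr1c14 had −1.05 besides the genes above, and on chromosome X. There Pnma3 (−1.68, unadjusted p = 0.0428) and Xlr3a (−1.27, unadjusted p = 0.0712) lay near Xlr4a, Tlr7 (−1.22, unadjusted p = 0.0169) near Frmpd4, and Dach2 (1.93, unadjusted p = 0.134) near Pof1b.

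Below the called genes stood genes with a larger signal that separated both groups at least 2-fold but with more spread. The lower ones included Cxcl12, a chemokine of stromal cells, at 1072, 755 and 461 in KDEL and 362, 158 and 140 in SUN1L cells (log2 difference −1.84, adjusted p = 0.302), and its adjusted p was 0.0491 without library 3 and 0.0395 with the runs as blocks. Lipg, endothelial lipase, was at 610, 604 and 549 against 30.9, 134 and 85.7 (−3.03, adjusted p = 0.713). Limch1, which binds non-muscle myosin, was at 651, 434 and 501 against 117, 152 and 215 (−1.73, adjusted p = 0.302). Tmem181a (−2.04), Gpnmb (−1.88, and −1.32 without library 3), a membrane glycoprotein of lysosomes and melanosomes, and Lcp1 (−1.68, and −1.07 without library 3), the actin-bundling plastin of leukocytes, completed this set, and their adjusted p ranged from 0.209 to 0.930.

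The 5 higher ones, Car6, Cdsn, Ppef1, Angptl6 and Ano3, all had their highest value on 1 kPa in library 3. Car6, a secreted carbonic anhydrase, was at 66.1, 50.9 and 79.6 in KDEL and 2193, 281 and 321 in SUN1L cells (log2 difference 3.16). Cdsn, corneodesmosin of cornified epithelia, was at 353, 1020 and 360 against 12222, 2638 and 1266 (2.76). Ppef1, a calcium-regulated phosphatase, was at 7.50, 13.3 and 30.6 against 446, 165 and 91.4 (3.60), and Angptl6, an angiopoietin-like secreted factor, at 62.1, 56.8 and 60.2 against 490, 99.1 and 146 (1.67). In each of the first 4 genes the groups did not overlap, and the adjusted p was 0.930. Without library 3 the differences were 2.20 for Car6, 1.85 for Cdsn, 2.98 for Ppef1 and 1.00 for Angptl6. KDEL library 8 on 308 kPa, of the same run as library 3, was close to library 3 or higher, with Car6 at 3609, Cdsn at 11598, Ppef1 at 600 and Angptl6 at 593, against 37.4 and 98.0, 433 and 351, 18.1 and 43.1, and 62.1 and 92.3 in the other KDEL libraries on that gel. Ano3, an anoctamin, was at 237, 212 and 150 in KDEL and 1304, 746 and 605 in SUN1L cells, and at 389 in library 8 (2.09, 1.77 without library 3, adjusted p = 0.346, and 0.00128 with the runs as blocks). Isyna1, which makes inositol phosphate from glucose phosphate and was singled out after its values were seen, was at 179, 201 and 269 against 513, 486 and 636 (1.34, adjusted p = 0.302, and 0.00685 with the blocks).

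Genes of dividing cells had lower means in SUN1L cells on the soft substrate, and most of that difference lay in library 3, the library known beforehand for low values of such genes. Of 35 tested genes of mitosis and chromosome segregation, 35 had a lower mean in SUN1L cells, with a median log2 difference of −1.25 against −0.01 for all tested genes. Of the 35, 0 were called and 0 had an unadjusted p under 0.05, beside 0.0874% and 4.54% of all genes. Mki67, the proliferation marker Ki-67, was at 12823, 11643 and 14320 in KDEL and 822, 8365 and 11013 in SUN1L cells (log2 difference −1.61 ± 1.25, unadjusted p = 0.226, and −0.42 without library 3). Top2a, the topoisomerase that untangles chromosomes, was at 22926, 21637 and 26156 against 2820, 16706 and 20603 (−1.25 ± 0.946, unadjusted p = 0.215, and −0.34 without library 3). In library 3 both were far below the other 5 libraries, whereas libraries 15 and 27 were slightly below their KDEL counterparts. Run by run the median difference of the list was −3.23 for library 3 against 4, −0.23 for 15 against 16 and −0.27 for 27 against 28.

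Without library 3 the median was −0.29, with 35 of 35 genes still lower, and 0 of the 35 had an unadjusted p under 0.05. With the runs as blocks and library 3 kept, 19 of the 35 did (against 14.1% of all genes in that fit), and 0 were called. In 15 of the 35 genes (42.9%) the SUN1L libraries on 1 kPa lay entirely below the KDEL libraries, beside 1259 of all 16021 tested genes. On 308 kPa 33 of 35 had a lower mean in SUN1L cells, but the runs differed in direction. As a mean of log2(signal + 1) over the list, SUN1L library 19 was above KDEL library 20 (11.587 against 11.448). Library 7 was below library 8 (8.70 against 8.97), and library 31 below library 32 (11.681 against 11.999). DNA replication and S phase genes were likewise lower on 1 kPa, with a median of −0.88 over 30 genes, 30 of them lower. That median was −0.17 without library 3, with 27 of 30 lower. Pcna, the replication clamp, was at 10995, 10276 and 12260 in KDEL and 2926, 9244 and 10654 in SUN1L cells (−0.75, and −0.17 without library 3), and Rrm1, a subunit of ribonucleotide reductase, at 9603, 7766 and 8943 against 1859, 6514 and 7086 (−0.99, and −0.36 without library 3). The low level of library 3 was shared by libraries of the same run on the stiff gel. As a mean of log2(signal + 1) over the mitosis list, library 3 was at 8.43 and libraries 15 and 27 at 11.3 and 11.5, the KDEL libraries on 1 kPa were between 11.5 and 11.8, and on 308 kPa both the SUN1L library 7 (8.70) and the KDEL library 8 (8.97) of the same run were as low. The inhibitor-treated KDEL libraries 10 and 12 of that run were at 11.4 and 11.5.

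**Figure D3:**
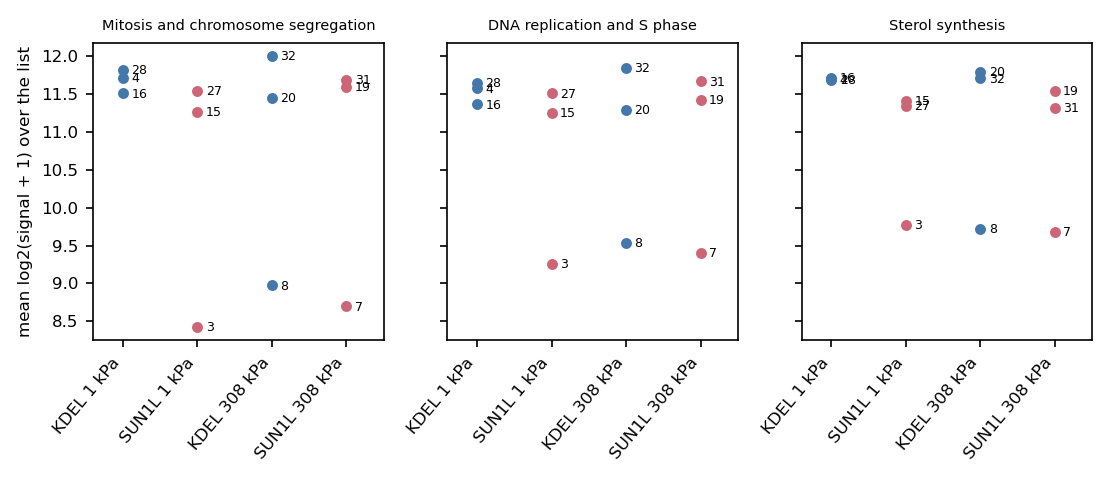
Mean log2(signal + 1) over the tested genes of 3 lists (panels) in each library of 4 groups, with library numbers beside the points. Libraries 3, 7 and 8 of the first run stand well below all others in each panel, and KDEL library 4 of that run does not.

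Growth arrest genes did not move as a list, with a median of −0.02 over 21 genes. Cdkn1a, the p53-induced CDK inhibitor p21, was at 10392, 10816 and 10607 in KDEL and 26261, 19640 and 11826 in SUN1L cells (log2 difference 0.78, unadjusted p = 0.0323, and 0.52 without library 3), highest in library 3 and nearest to KDEL in library 27. Cdkn1b, the inhibitor p27, had a difference of −0.31 (unadjusted p = 0.0377). Neither was called.

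Genes of sterol synthesis were also lower in the means, 24 of 24 with a median of −0.83, again with the lowest list level on 1 kPa in library 3. Sterol enzymes are induced together by SREBP2 when the ER membrane is short of cholesterol, and Insig1 retains the SREBP escort protein in the ER. In 16 of the 24 genes (66.7%) all SUN1L libraries lay below all KDEL libraries, beside 1259 of all 16021 tested genes. Without library 3 the median was −0.30 with 24 of 24 lower, and run by run it was −1.93, −0.24 and −0.36. With the runs as blocks and library 3 kept, 11 of 24 had an unadjusted p under 0.05, against 14.1% of all genes. Without library 3, in the fit without blocks, 1 of 24 did, against 2.63% of all genes. In all of these fits 0 were called. Insig1 overlapped, with 13440, 15554 and 12755 against 2214, 15352 and 10258 (−0.98 ± 0.957, and −0.14 without library 3). On 308 kPa the median was −0.29 with 23 of 24 lower, in libraries of the same 2 lines.

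The promoters of these 3 lists, none of whose members was called, were searched for short motifs chosen after the values were seen. CCAAT on either strand, the letters bound by NF-Y, was present in 16 of the 16 sterol genes with a RefSeq promoter and in 22 of 31 mitosis and 16 of 25 S phase genes, against 42.5% of tested genes with a promoter. TTTGAA on either strand, the core of the cell-cycle homology region found in many mitotic genes, was present in 22 of 31 mitosis genes, 3 of 25 S phase genes and 1 of 16 sterol genes, against 14.6%. TCACCCCA, part of a known SREBP site, was present in 2 of 16 sterol genes and in 0 mitosis and 0 S phase genes, against 1.86%. No motif is contained in another on either strand, and a match is a description of the window. The 3 promoters below belong to Insig1, Top2a and Mki67 and show the motifs in place, with CCAAT and TTTGAA of either strand in capitals (RefSeq, GRCm38.p6, Insig1 plus strand, Top2a and Mki67 minus strand).

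Insig1, chr5:28071162-28071461: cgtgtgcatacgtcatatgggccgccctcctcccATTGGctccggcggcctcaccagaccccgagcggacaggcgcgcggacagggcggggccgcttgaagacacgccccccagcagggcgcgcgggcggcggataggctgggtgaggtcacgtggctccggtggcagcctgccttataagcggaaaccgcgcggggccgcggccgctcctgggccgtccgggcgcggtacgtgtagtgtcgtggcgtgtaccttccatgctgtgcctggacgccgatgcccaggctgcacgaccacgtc
Top2a, chr11:99024140-99024439: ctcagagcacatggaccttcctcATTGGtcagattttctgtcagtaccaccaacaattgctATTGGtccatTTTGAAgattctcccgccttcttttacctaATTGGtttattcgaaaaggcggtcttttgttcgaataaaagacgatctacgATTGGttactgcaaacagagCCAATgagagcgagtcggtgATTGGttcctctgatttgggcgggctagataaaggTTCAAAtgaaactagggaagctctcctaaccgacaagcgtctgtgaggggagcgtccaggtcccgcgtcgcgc
Mki67, chr7:135716330-135716629: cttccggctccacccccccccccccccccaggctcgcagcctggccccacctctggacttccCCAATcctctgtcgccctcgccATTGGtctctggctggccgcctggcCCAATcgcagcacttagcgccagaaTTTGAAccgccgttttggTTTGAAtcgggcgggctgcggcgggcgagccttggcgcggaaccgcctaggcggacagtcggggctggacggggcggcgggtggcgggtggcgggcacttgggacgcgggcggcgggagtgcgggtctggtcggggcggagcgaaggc

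Lists for the cytoskeleton, adhesion and matrix had 0 called genes each, beside 0.0874% of all genes. Tubulin genes had a median log2 difference of −0.42 over 15 genes, which became −0.03 without library 3. Tubb2b, a β-tubulin best known from neurons, was at 156, 92.6 and 142 in KDEL and 15.2, 42.0 and 41.9 in SUN1L cells (−2.05, unadjusted p = 0.0101) and remained at −1.58 without library 3, while Tubb4a had a difference of 0.84 (unadjusted p = 0.0323). Actin and SRF target genes had a median of −0.35 over 28 genes and −0.10 without library 3, with Actb at 182130, 165680 and 197620 against 77986, 155340 and 183750 (−0.47, unadjusted p = 0.388, and −0.10 without library 3) and Actg1 at −0.51 (−0.09 without library 3). The low values of both actins were in library 3. For 39 integrin and focal adhesion genes the median was −0.11 (−0.03 without library 3), and 2 genes (5.13%, against 4.54% of all genes) had an unadjusted p under 0.05. These were Fermt2, kindlin-2 (−0.28), and Itga4 (1.30), which was near the lowest value and overlapped, with 5.16, 1.11 and 1.02 in KDEL and 7.33, 7.66 and 4.38 in SUN1L cells.

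Extracellular matrix genes were lower in 28 of 35 cases on 1 kPa and, in other libraries of the same lines, in 28 of 35 on 308 kPa, with medians of −0.24 and −0.16. Without library 3 the median on 1 kPa was −0.18, with 28 of 35 lower. Col5a2, a fibrillar collagen chain, was at 64746, 49119 and 43932 in KDEL and 30413, 38054 and 33048 in SUN1L cells (−0.62, unadjusted p = 0.0104), and Fbln5, a glycoprotein of elastic fibres, had a difference of −0.92 (unadjusted p = 0.0428). Without library 3 the differences of Col5a2 and Fbln5 were −0.55 and −0.73. Fn1 (0.29) and Col1a2 (−0.26) overlapped between groups. Ankrd1, a target of YAP and TAZ, was at 5999, 5052 and 4772 against 3416, 3968 and 3548 (−0.53, unadjusted p = 0.00869) and was the 1 gene of 21 in its list (4.76%) with an unadjusted p under 0.05. Col5a2 and Fbln5 were 2 such genes of 35 in the matrix list (5.71%), and both shares were near the 4.54% of all genes. With the runs as blocks, 7 of 39 integrin, 7 of 28 actin and SRF, 7 of 35 matrix and 4 of 15 tubulin genes had an unadjusted p under 0.05, beside 14.1% of all genes in that fit, and none of them was called.

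Both constructs end in the ER retrieval signal, and genes of ER chaperones and the unfolded protein response gave a median of −0.001 over 36 genes, 18 higher and 18 lower. Without library 3 the median was 0.06, with 23 higher and 13 lower. Of the 36 genes 0 were called, beside 0.0874% of all genes. Atf3, a stress-induced transcription factor, was the 1 of them (2.78%) with an unadjusted p under 0.05, at 63.8, 74.1 and 90.2 in KDEL and 185, 145 and 147 in SUN1L cells (1.06, unadjusted p = 0.0119), and with the runs as blocks there were 7 of 36, beside 14.1% of all genes. Interferon-stimulated genes had a median of −0.03 over 23 genes (−0.07 without library 3), of which 0 were called, beside 0.0874% of all genes. Irf7 was at 1.19 (unadjusted p = 0.0106, and 0.87 without library 3) and Ifi44 at −0.98 (unadjusted p = 0.0486), both at low signal.

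**Figure D4:**
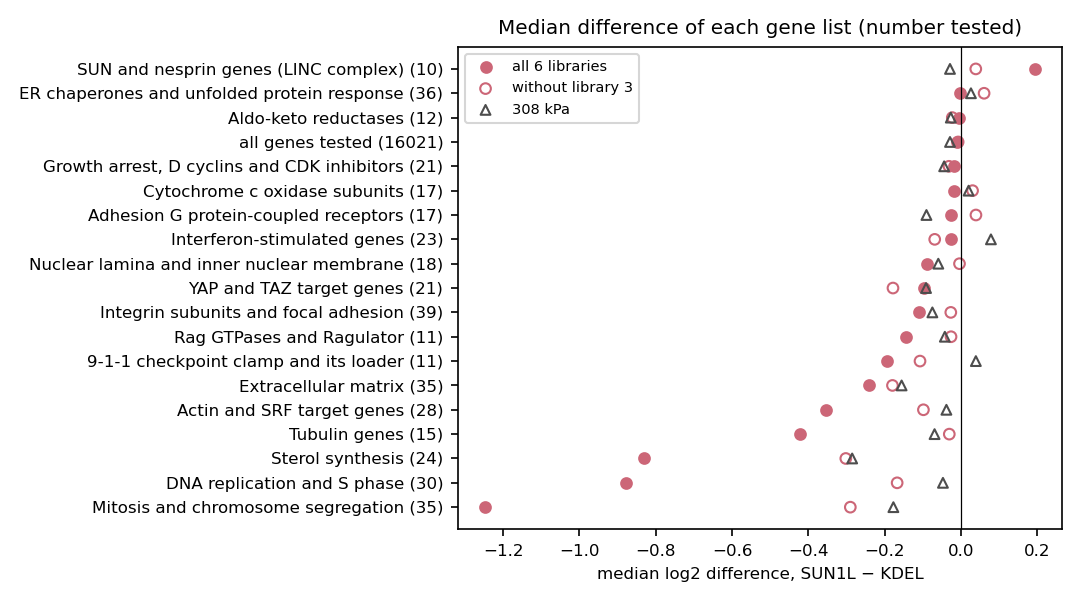
Median log2 difference between SUN1L and KDEL cells for each gene list with at least 10 tested genes (number tested in brackets), with all 6 libraries on 1 kPa (filled), without library 3 (open circles) and on 308 kPa (triangles). Mitosis, S phase and sterol lists lie furthest below 0 at −1.25, −0.88 and −0.83 and move to −0.29, −0.17 and −0.30 without library 3.

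Chromosome 17 stood out when differences were ordered by position, a view taken after the values were seen. Of 805 tested genes on chromosome 17, 134 (16.6%) had an unadjusted p under 0.05, against 2.07% to 7.01% on the 19 other chromosomes with a number or X, and 125 of the 134 were higher in SUN1L cells. Chromosome 17 held 5.02% of tested genes and 28.4% of the 440 genes that were higher at an unadjusted p under 0.05. None of the 14 called genes lies on it. Over genes with a mean signal of at least 100, the median log2 difference was 0.20 on chromosome 17 and between −0.12 and 0.04 on the other chromosomes.

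The shift began near 22 Mb from the chromosome start in GRCm38. Before 22 Mb the median of 67 genes was −0.05, with 27 higher, and from 22 Mb on the median of 465 genes was 0.24, with 397 (85.4%) higher, against 39.8% higher among 10064 genes of the other chromosomes. In steps of 10 Mb the medians were −0.03 and −0.06 up to 20 Mb, 0.26, 0.30, 0.20 and 0.24 from 20 to 60 Mb, and 0.12, 0.12 and 0.14 from 60 to 90 Mb. Library 3 did not carry this difference, since the median from 22 Mb was 0.25 without it, and it was 0.19 on 308 kPa.

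Read against the 5 inhibitor-treated KDEL libraries, the genes from 22 Mb were at 0.22, 0.20 and 0.32 in the SUN1L libraries on 1 kPa and at 0.08, 0.11 and 0.34 on 308 kPa. The KDEL libraries were at 0.02, −0.02 and 0.03 on 1 kPa and at −0.04, −0.09 and 0.06 on 308 kPa. Both lines separated on either gel, but narrowly on 308 kPa, with SUN1L library 7 at 0.084 and KDEL library 32 at 0.061. Before 22 Mb the SUN1L libraries were at −0.03, −0.09 and −0.05 on 1 kPa and at 0.09, −0.05 and −0.09 on 308 kPa. Library 7, at 0.09 before 22 Mb, thus showed no step there. Among genes of the other chromosomes the same reading was between −0.12 and −0.04 in all 6 SUN1L libraries. The genes from 22 Mb include Cdkn1a, Cdsn, Tubb4a and Cox7a2l named above, whose differences of 0.78, 2.76, 0.84 and 0.53 were all larger than the median of the region. DNA copy number was not measured, and the cause of the shift was not tested.

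**Figure D5:**
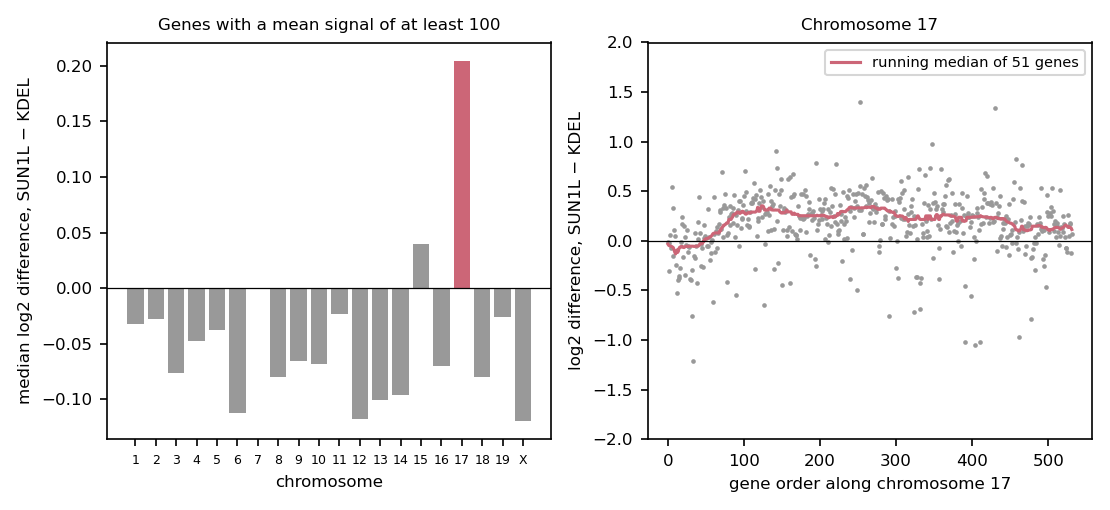
Left, median log2 difference between SUN1L and KDEL cells on 1 kPa over genes with a mean signal of at least 100 on each chromosome, with chromosome 17 in red at 0.20. Right, the 532 such genes of chromosome 17 in their order along the chromosome with a running median of 51 genes, which leaves 0 after the first part of the chromosome; 2 genes lie outside the axis.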

How the data were processed

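RNA-seq reads from 18 libraries were processed by the authors, who per the submitters' processing notes used FastQC, TopHat2 2.0 and SAMtools, removed low-quality and duplicate reads, and counted genes in AvadisNGS. The deposited values are a TMM-normalised signal per gene on a linear scale with a lowest value of 1, not divided by gene length. The methods name mm9, whereas the positions in the deposited table are those of GRCm38, and a strand setting for the counting is not given in the sources used here. Spacing of low values put 1 read pair at 1.70 to 2.33 signal units in the 1 kPa libraries, but only 52.3% to 54.9% of low values fell on such steps within a tolerance of 0.02, so counts were not recovered and no count test was run. Columns with the authors' own comparisons were not used.

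Groups came from the sample labels. Library 34, an empty-vector library whose labels conflict, was left out of all groups. Genes above 1 in at least 3 of 18 libraries were tested on log2(signal + 1), which understates fold changes of low genes, with limma 3.58.1 (R 4.3.3, trend on the mean) over 12 libraries in 4 groups. Genes were called when the two-sided p, adjusted by Benjamini-Hochberg, was below 0.05 and the difference reached 2-fold, and p-values are limma's unless named otherwise. The methods name z-score calculations with Benjamini-Hochberg correction without further detail, and a z-test of proportions on summed signal was built here as an alternative. Script tables and figures were made with Python 3.11.15, and the fit was tested on simulated data.

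Pairing of libraries within the 3 runs of library numbers was checked from their deviations from group means. These correlated between 0.104 and 0.673 in all 18 same-run pairs, and between 0.104 and 0.262 in those of SUN1L and KDEL libraries on 1 kPa. Other pairs gave −0.606 to 0.141, where deviations that cancel within each group favour negative values. The runs were treated as pairing in a blocked fit. The labels do not say what a run shares.

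Named genes were those called on 1 kPa, with all libraries or without library 3, the SUN, nesprin and lamin genes, up to 4 genes at an unadjusted p under 0.05 per list (otherwise the 2 with the highest signal), and the 5 largest rises and falls outside these with non-overlapping groups, at least a 2-fold difference and a mean signal of at least 100. 1 gene that this rule names is not reported here. Other members of a called gene's family and its neighbours were added for context. The members, lists and rules were chosen with earlier results of these data known. The lists for families of called genes were chosen because a member was already known as called. The chromosome 17 description and the promoter motifs were chosen after the values were seen. Promoters came from RefSeq (GRCm38.p6). Alternatives were another pseudocount, filter, scaling, set of libraries, weighting or test, each library left out, and the block.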

Additional observations from a re-analysis of the deposited data

How the results depend on the processing

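The number of genes called on 1 kPa was 14 and ranged from 8 to 15 with 1 library left out in turn, lowest without KDEL library 4. It was 1 when the 6 libraries were fitted alone (1107 at an unadjusted p under 0.05), 22 with 17 libraries in 1 fit, 55 with array weights, 729 with the z-test on summed signal, and 778 when a 2-fold difference alone was asked for. Other settings gave 13 to 17, among them 17 with the replicate block by runs and 13 with that block and without library 3. On 308 kPa 10 genes were called, 9 to 10 with 1 library left out, 2 with 6 libraries alone and 16 with 17 libraries. The interaction called 0 genes in every setting. The cause of these shifts was not tested, except that the fit of 6 libraries had fewer libraries to estimate the spread.

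Among values of the 76 named genes under the alternatives, 1639 kept direction and side of the threshold, 51 lost the call, 15 gained it and 32 changed sign, none of these called. Sun2 (−0.0019) became 0.052 with quantile scaling, 0.087 with array weights, 0.0025 as a ratio of means and 0.0036 with the block and without library 3. With array weights Spag4 was −0.078, Lrmp 0.071, Tek −0.0087 and Fabp4 0.75. Fabp4 was also 0.039 with a pseudocount of 8 and 0.34 as a ratio of means, and Pparg −0.015 as a ratio of means and −0.15 with the block and without library 3. With 1 library left out in turn the range was −0.12 to 0.073 for Sun2, −0.57 to 0.035 for Syne3, −0.86 to 0.54 for Lrmp, −0.40 to 1.05 for Ccdc155, −0.37 to 1.22 for Tek, −0.67 to 0.061 for Cd14, −0.25 to 0.40 for Cd68, −0.31 to 0.68 for Pparg and −0.81 to 0.59 for Fabp4. The median of chromosome 17 genes from 22 Mb was 0.21 to 0.25 with 1 library left out and 0.30 with quantile scaling. The median SE of a log2 difference was 0.207 at a mean signal of at least 100 and 0.445 below 10, which limits what small differences of low genes can show.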

Other observations

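Library 34 was derived from cells with an empty vector and belongs to no group here. Its values for the called genes were near those of KDEL cells for some and not for others. Sun1 was at 3656, Rad1 at 581, Akr1c13 at 92.9, Ttyh3 at 1484, Cd97 at 167 and Rgl3 at 128. Other genes were below the range of the 11 KDEL libraries: Serpina1a was at 63.1, Serpina1c at 1.78, Olfr1028 at 4.34, Rragd at 8.85, Cox7b2 at 21.6, Pof1b at 4.50 and Xlr4a at the lowest value of 1. Frmpd4 was at 4.42. Genes of chromosome 17 from 22 Mb were at a median of 0.01 in library 34 relative to the inhibitor-treated KDEL libraries, against 0.20 to 0.32 in the SUN1L libraries on 1 kPa.

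Chromosome 17 also held 12 of the 43 genes that were higher in all 6 SUN1L than in all 11 KDEL libraries, and 25 of the 80 genes that were higher at an unadjusted p under 0.05 on both gels. Chromosome X had the largest share of genes at an unadjusted p under 0.05 after chromosome 17, with 7.01%, of which 31 were lower and 7 higher in SUN1L cells.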
